A study of Homo sapiens with 18 samples.

Results

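The genes described here make, load and control MHC class I molecules, the proteins with which nearly every nucleated cell shows fragments of its own proteins to T cells. They are HLA-B, HLA-C, HLA-E, B2M, TAP1, TAP2, TAPBP, ERAP1 and NLRC5, which are 9 of the 38716 gene symbols listed for each of the 18 libraries. They were chosen as genes of the pathway, by name and with no threshold on a measured value, but with earlier results of these data known. The class I HLA genes are near copies of each other and can share reads, so HLA-B, HLA-C and HLA-E were also added together, which is called the HLA sum below. The cells were IMR90, a human fetal lung fibroblast line that stops dividing after long passaging. Ribosome footprints (Ribo-seq) and poly(A) mRNA (mRNA-seq) were read from the same lysates of 3 groups, with 3 lysates in each group. The young group was proliferating cells. The old group had been passaged into replicative senescence. The ICM group was treated with inflachromene, a compound whose known targets are HMGB1 and HMGB2, DNA-bending proteins of chromatin. Treatment lasted 6 days. The labels give no dose and name no vehicle control. The study's methods describe single IMR90 isolates and independent cultures, so p-values here speak of the spread between cultures of a line and not of the spread between people. All libraries are of bulk lysates, in which fewer cells with an mRNA and less of it per cell cannot be told apart.

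A class I molecule is built from a heavy chain, here HLA-B, HLA-C or HLA-E, and the small invariant light chain β2-microglobulin, encoded by B2M. Peptides cut from cytosolic proteins are pumped into the endoplasmic reticulum by the TAP transporter, whose subunits are TAP1 and TAP2, and the aminopeptidase ERAP1 trims them there. Tapasin, encoded by TAPBP, holds an empty class I molecule at the transporter until a peptide fits. NLRC5 is the transactivator that drives class I genes from a set of promoter boxes, and interferons raise most genes of the pathway. HLA-E is also a ligand of inhibitory receptors of natural killer cells.

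Between 7902427 and 14144455 mRNA-seq reads per library fell on 5′ UTR, CDS and 3′ UTR, and between 46239 and 1718521 Ribo-seq reads per library fell on CDS. Young replicate 1 and old replicate 2 stood apart in Ribo-seq, with 34.4% and 15.0% of their reads on CDS and 52.5% and 45.2% on non-coding RNA. ICM replicate 3 was the shallowest library. Detection alone does not set a cell type apart, since all 4 epithelial markers also had reads in mRNA-seq. The label of fibroblast was matched by the level of its markers, of which 9 of 9 were detected. They summed to 28780 to 32595 CPM in young, 27139 to 30480 CPM in old and 12202 to 12685 CPM in ICM, where CPM is the depth-normalised read count of edgeR, relative to library sizes scaled by TMM. The 10 immune markers summed to 20.3 to 22.4 CPM in young, 32.6 to 36.0 CPM in old and 54.5 to 66.8 CPM in ICM, with CD3E and HLA-DRA at 0 in all 9 mRNA-seq libraries. Of these 10, CD68, a lysosomal protein that fibroblasts also make, was nearly the whole sum, at means of 20.6, 33.2 and 58.6 CPM, and PTPRC, which all leukocytes carry, stayed at means of 0.0803 to 0.111 CPM. The 4 endothelial markers summed to at most 4.52 CPM and the 4 epithelial ones to at most 1.74 CPM in any mRNA-seq library. In Ribo-seq the highest endothelial sum was 20.1 CPM in old, the level that 1 read gives in old replicate 2. The highest epithelial sum there was 2.23 CPM in young, and the immune markers reached 54.6 CPM in ICM. The part of these markers in the results that follow was not tested.

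Of the 9 genes, 6 lie in the MHC on the short arm of chromosome 6. In GRCh37, the build named in the submitters' processing notes, the GENCODE annotation places HLA-E at chr6:30457286-30461971 on the plus strand, HLA-C at chr6:31236526-31239907, HLA-B at chr6:31321649-31334844 with alternative transcripts included, TAP2 at chr6:32789610-32806516, TAP1 at chr6:32812986-32821593 and TAPBP at chr6:33267471-33282061, these last 5 on the minus strand. ERAP1 lies at chr5:96096514-96143803 on the minus strand, B2M at chr15:45003556-45011049 on the plus strand and NLRC5 at chr16:57023397-57117443 on the plus strand. Their MANE Select coding sequences are between 357 bases, for B2M, and 5598 bases, for NLRC5.

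The promoters of 7 of the 9 members were found in the RefSeq promoter table (GRCh38.p14), all but HLA-E and NLRC5, and each of their 9 windows of 300 bases matched GRCh37 at a single place. The windows were searched on both strands for the letters TGACG, the core of the X2 box through which class I transactivation runs, for ATTGG, which is the Y box or CCAAT box written on its other strand, and for a pair of GAAA with any 2 bases between them, the core of the interferon-stimulated response element, ISRE for short. The following 3 stretches are shown because the same pair of boxes stood in them in the same order, TGACG and then ATTGG on the strand of the gene, both in capitals, with their starts 25 or 26 bases apart.
HLA-C, chr6:31239945-31239974, minus strand: TGACGcgtccccaattcccactcccATTGG
HLA-B, chr6:31325033-31325062, minus strand: TGACGcgtccccacttcccactcccATTGG
B2M, chr15:45003640-45003670, plus strand: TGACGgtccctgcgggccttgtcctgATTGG
The first base stood 105, 106 and 75 bases before the start of HLA-C, HLA-B and B2M. The HLA-B and HLA-C stretches were identical at 29 of 30 bases. Among all 35116 windows of the RefSeq list, 0.817% held such a pair within 30 bases, while 24.6% held TGACG and 34.6% held ATTGG.

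The ISRE core was found before the start of B2M, TAP1, TAP2 and TAPBP and is in capitals below, where matches that overlap run on as a single stretch. In TAP1 it lies on the opposite strand and reads as its reverse complement.
B2M, chr15:45003564-45003593, plus strand: actctaaGAAAAGGAAACTGAAAacgggaa
TAP1, chr6:32821593-32821622, minus strand: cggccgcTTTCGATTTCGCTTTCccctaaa
TAP2, chr6:32806555-32806584, minus strand: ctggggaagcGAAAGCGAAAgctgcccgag
TAPBP, chr6:33281856-33281885, minus strand: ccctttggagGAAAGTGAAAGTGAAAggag
B2M, TAP1 and TAPBP each held 2 overlapping matches, and that of TAPBP lay in the last 30 bases before the start. ERAP1 held a match just past its start, and none was found in the windows of HLA-B and HLA-C. Of all windows 3.57% held the ISRE core. A match is a description of letters and not evidence that a factor was bound in these cells.

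In mRNA-seq the heavy chain genes rose together in old cells and split in ICM cells. HLA-B stood at 315, 294 and 282 CPM in the young replicates, at 566, 533 and 512 CPM in old and at 180, 192 and 176 CPM in ICM. The 3 groups did not overlap, and ICM was the lowest. The log2 change was 0.85 ± 0.06 (SE) in old against young, -0.70 ± 0.07 in ICM against young and -1.56 ± 0.07 in ICM against old, which is 2.94-fold lower (edgeR adjusted p = 9.57e-11, 2.17e-09 and 2.59e-15). HLA-C, the other classical heavy chain among the members, was at 249, 245 and 225 CPM in young, 446, 421 and 427 CPM in old and 210, 224 and 200 CPM in ICM. It was 1.80-fold higher in old than in young and 2.04-fold lower in ICM than in old. Between ICM and young it differed by a log2 change of only -0.18 ± 0.06 (edgeR adjusted p = 0.016). That call was lost without young replicate 1 or 2 or ICM replicate 1 or 3 (edgeR adjusted p = 0.074, 0.065, 0.059 and 0.10) and on CDS reads alone (log2 change -0.13, edgeR adjusted p = 0.076).

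HLA-E, a ligand of natural killer cell receptors, went the other way in ICM cells. It was at 182, 177 and 184 CPM in young, 399, 406 and 417 CPM in old and 310.0, 337 and 310.3 CPM in ICM. Both ICM and old were above young in every library, by log2 changes of 0.82 ± 0.06 and 1.17 ± 0.06, which are 1.76-fold and 2.25-fold (edgeR adjusted p = 4.87e-11 and 2.02e-13). ICM lay below old by a log2 change of -0.35 ± 0.06 (edgeR adjusted p = 1.95e-05).

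**Figure D1:**
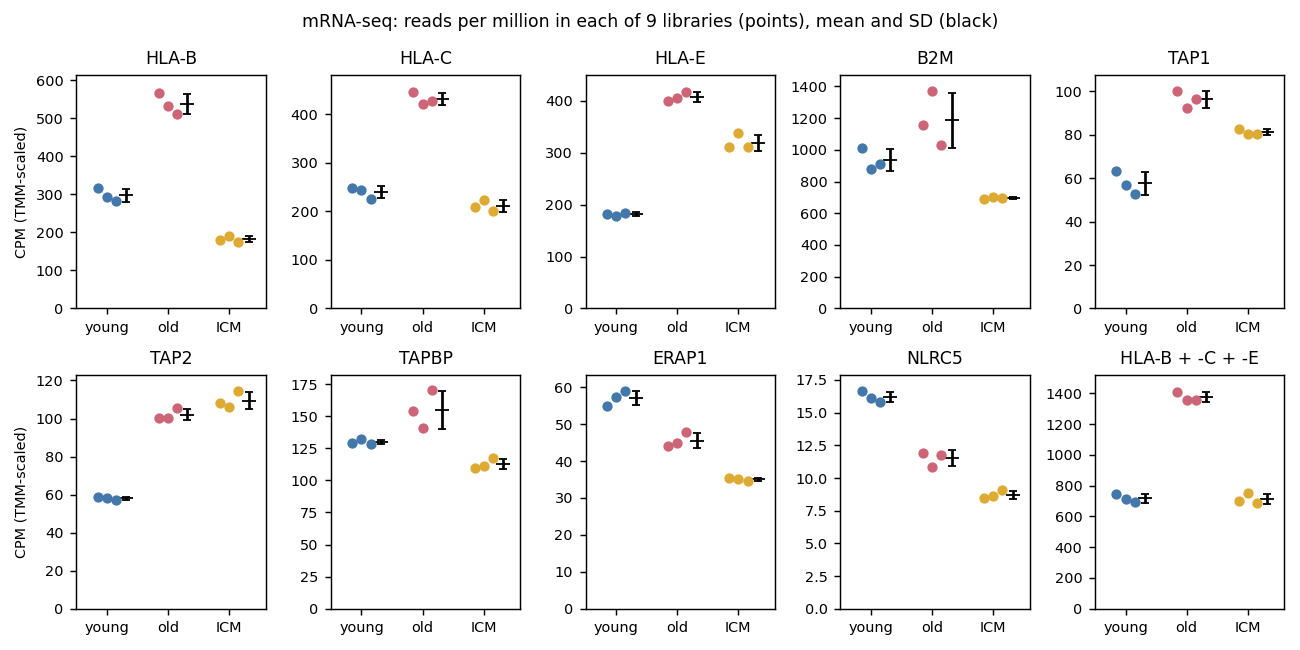
mRNA-seq level of each member and of the HLA sum, in CPM (vertical axes, from 0), in the 3 young, 3 old and 3 ICM libraries (points), with the mean and SD in black. HLA-B, HLA-C, B2M and TAPBP are highest in old and lowest in ICM, TAP1 and HLA-E in ICM lie between young and old, and ERAP1 and NLRC5 step down from young to old to ICM.

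Added together, HLA-B, HLA-C and HLA-E hid this split. The HLA sum was at 747, 716 and 691 CPM in young, 1411, 1360 and 1356 CPM in old and 699.9, 753 and 686 CPM in ICM. Old was 1.92-fold above young (log2 change 0.94 ± 0.06, edgeR adjusted p = 1.07e-11), while ICM and young overlapped and differed by -0.01 ± 0.06 on the log2 scale (95% interval -0.13 to 0.11, edgeR adjusted p = 0.89). When the rows of all the other class I HLA genes and pseudogenes in the files were added to the sum, ICM was below young by a log2 change of -0.20 (edgeR adjusted p = 0.0051).

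The makeup of the HLA sum moved with ICM. HLA-B was 42.2%, 41.1% and 40.9% of the summed mRNA-seq reads in young, 40.1%, 39.2% and 37.8% in old and 25.8%, 25.4% and 25.6% in ICM. HLA-E was 24.4%, 24.8% and 26.6% in young, 28.3%, 29.8% and 30.8% in old and 44.3%, 44.8% and 45.2% in ICM. The exact 95% binomial interval of any of these shares, from 6018 to 18342 summed reads, spans under 3 percentage points and covers counting error only. Neither share overlapped between any pair of groups. The HLA-B share was 15.8 percentage points lower and the HLA-E share 19.5 points higher in ICM than in young (exact two-sided permutation p = 0.10 for each, the smallest that 3 against 3 libraries can give). The HLA-C share moved less, from 33.3% ± 0.829 (SD, n = 3) in young to 31.4% ± 0.336 in old and 29.6% ± 0.402 in ICM. The HLA rows held values that were not whole numbers in 8 of 9 mRNA-seq libraries for HLA-B, 5 of 9 for HLA-C and 9 of 9 for HLA-E (tolerance 0.001). So did TAPBP in 9, B2M in 8 and TAP1 and TAP2 in 7 each, and what made these fractions was not tested.

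**Figure D2:**
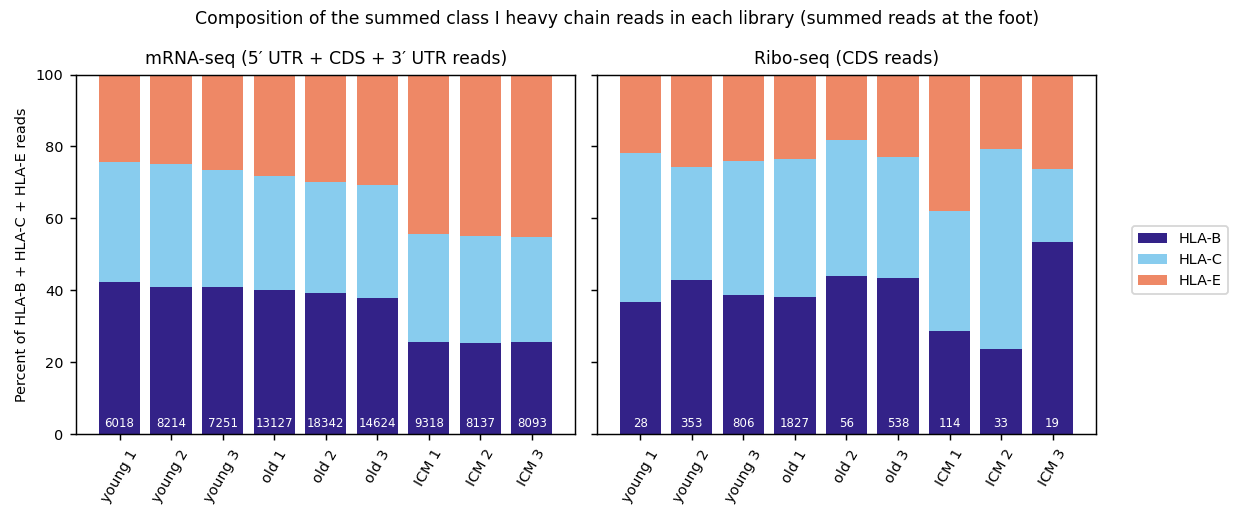
Share of HLA-B, HLA-C and HLA-E in their summed reads in each library (stacked bars, percent), for mRNA-seq on the left and Ribo-seq on the right, with the number of summed reads at the foot of each bar. In mRNA-seq the ICM bars hold about 25% HLA-B and 45% HLA-E against about 41% and 25% in young, and in Ribo-seq the ICM bars rest on 114, 33 and 19 reads.

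B2M, the light chain, was the most abundant member. It stood at 1012, 879 and 911 CPM in young, 1157, 1370 and 1029 CPM in old and 690.3, 703 and 699 CPM in ICM. The 3 groups did not overlap. It rose in old by a log2 change of 0.34 ± 0.08 (1.27-fold, edgeR adjusted p = 7.60e-04) and was lower in ICM by a log2 change of -0.42 ± 0.08 (1.34-fold, edgeR adjusted p = 8.27e-05), and ICM was 1.70-fold below old. B2M rose less in old than the heavy chains, so the reads of B2M per read of the HLA sum went from 1.30 ± 0.0654 (SD, n = 3) in young to 0.862 ± 0.129 in old, and they were 0.979 ± 0.0428 in ICM. Young did not overlap either of the others in this ratio (exact two-sided permutation p = 0.10, the smallest possible), and old and ICM overlapped (p = 0.30, same exact permutation test).

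The transporter subunits were higher in old and in ICM than in young cells. TAP1 was at 63.3, 56.9 and 53.0 CPM in young, 100.1, 92.2 and 96.5 CPM in old and 82.7, 80.3 and 80.5 CPM in ICM. TAP2 was at 58.8, 58.0 and 57.3 CPM in young, 100.1, 100.5 and 105.6 CPM in old and 107.9, 106.2 and 114.3 CPM in ICM. Every old and every ICM library was above every young one for both genes. TAP1 rose by 0.74 ± 0.07 in old and 0.50 ± 0.07 in ICM on the log2 scale, and was lower in ICM than in old (-0.24 ± 0.07, edgeR adjusted p = 0.0030). TAP2 rose by 0.81 ± 0.06 in old and 0.91 ± 0.06 in ICM, and ICM and old did not pass the test (0.10 ± 0.06, 95% interval -0.02 to 0.22, edgeR adjusted p = 0.15). On CDS reads alone that difference was 0.19 with an edgeR adjusted p of 0.022. TAP2 reads per TAP1 read were 1.01 ± 0.0771 (SD, n = 3) in young, 1.06 ± 0.0532 in old and 1.35 ± 0.0613 in ICM.

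TAPBP, which encodes tapasin, had its groups in the same order as B2M, with old highest and ICM lowest. It was at 129.5, 132 and 129 CPM in young, 154, 141 and 170.5 CPM in old and 109.8, 111 and 117 CPM in ICM, with no overlap between groups. The changes were small, 0.25 ± 0.07 in old and -0.20 ± 0.07 in ICM on the log2 scale (edgeR adjusted p = 0.0026 and 0.011), and -0.46 ± 0.07 in ICM against old. The ICM call against young was lost without ICM replicate 1 (edgeR adjusted p = 0.054) and on CDS reads alone (log2 change -0.10, edgeR adjusted p = 0.29).

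ERAP1 and NLRC5 were lower in old and in ICM than in young cells. ERAP1, the peptide trimmer, was at 55.0, 57.4 and 59.0 CPM in young, 44.03, 44.8 and 47.7 CPM in old and 35.3, 35.2 and 34.5 CPM in ICM. Its log2 change was -0.33 ± 0.07 in old against young, -0.71 ± 0.07 in ICM against young and -0.38 ± 0.07 in ICM against old (edgeR adjusted p = 2.12e-04, 5.66e-09 and 6.71e-05). NLRC5, the transactivator of class I genes, was the least abundant member at 16.6, 16.1 and 15.8 CPM in young, 11.9, 10.8 and 11.8 CPM in old and 8.49, 8.60 and 9.07 CPM in ICM. Against young it was lower by log2 changes of -0.50 ± 0.10 in old and -0.89 ± 0.10 in ICM, the latter 1.85-fold (edgeR adjusted p = 1.74e-04 and 9.51e-08). NLRC5 rested on 485, 384 and 313 reads in all in the 3 groups. For both genes each group was apart from the others, in the order young, old, ICM.

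By count, 3 of 9 members were higher and 6 lower in ICM than in young at an edgeR adjusted p under 0.05, where 34.9% of the 13173 genes tested were higher and 36.1% lower. In old against young 7 members were higher and 2 lower, against 32.4% and 33.7% of all genes. In ICM against old 8 were lower, none was higher and TAP2 was not called, against 32.6% lower and 30.7% higher among all genes. Most genes passed the test in each comparison, so passing the test sets no member apart, and the directions and sizes carry the description. The median log2 change of the members was -0.20 in ICM against young, 0.74 in old against young and -0.39 in ICM against old, with medians of all genes at -0.01 in each.

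**Figure D3:**
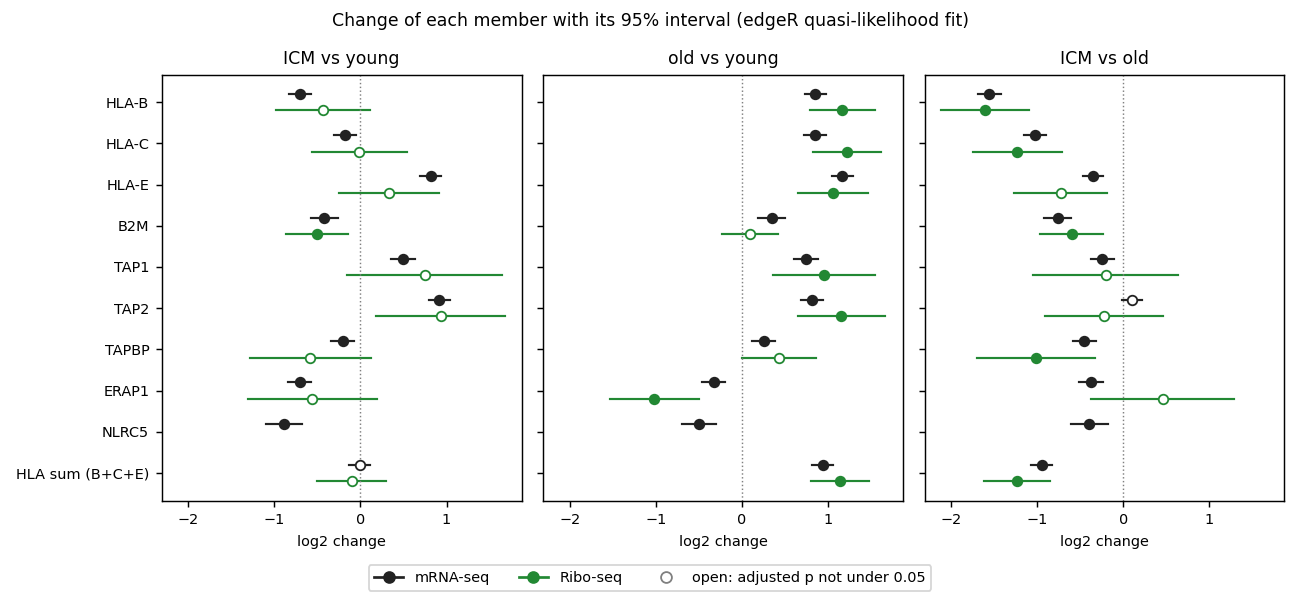
Log2 change of each member and of the HLA sum (horizontal axis) in ICM against young, old against young and ICM against old, in mRNA-seq (black) and Ribo-seq (green), with 95% intervals and open circles where the edgeR adjusted p was not under 0.05. In old against young the mRNA-seq points of HLA-B, HLA-C and HLA-E lie at 0.85, 0.85 and 1.17 and those of ERAP1 and NLRC5 below 0, and the Ribo-seq intervals are the wider ones throughout.

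Levels can be compared between genes once length is taken into account, as CPM of CDS reads divided by the kilobases of coding sequence. For the HLA genes the order can also depend on how shared reads were divided among them, which is not given in the sources used here. On that mRNA-seq scale young cells held 1336 ± 132 for B2M (SD, n = 3), 222 ± 6.91 for HLA-B, 158 ± 9.04 for HLA-C and 94.97 ± 3.42 for HLA-E. TAPBP followed at 47.8 ± 0.985, TAP1 at 23.4 ± 1.55, TAP2 at 17.3 ± 0.464, ERAP1 at 12.6 ± 0.277 and NLRC5 at 2.54 ± 0.0734. Each neighbour in this order differed by more than the SDs, and the order was the same in old cells. In ICM cells the heavy chains stood closer together and in another order, with HLA-E at 154 ± 9.74, HLA-C at 141 ± 7.40 and HLA-B at 138 ± 5.33. TAP1 was at 33.8 ± 0.313 and TAP2 at 33.0 ± 1.04, and neither HLA-C and HLA-B nor TAP1 and TAP2 differed beyond their SDs.

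In Ribo-seq 8 of the 9 members passed the filter on low counts. NLRC5 did not, with 18 footprints in all in young, 15 in old and 4 in ICM, and 0 in old replicate 2 and ICM replicate 2. These zeros allow up to 60.4 and 40.9 CPM, above the level of NLRC5 in every other library. The ICM libraries held few footprints of any member, from 22 in all for ERAP1 to 232 for B2M, against 97 to 2186 in old for the same 8 genes.

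The rise of the heavy chains in old cells was also seen in footprints. HLA-B was at 201, 242 and 198 CPM in young, 494, 493 and 479 CPM in old and 162, 107 and 232 CPM in ICM. HLA-C was at 228, 176 and 191 CPM in young, 500.4, 426 and 372 CPM in old and 186, 252 and 87.5 CPM in ICM. HLA-E was at 119, 145 and 124 CPM in young, 304, 205 and 252 CPM in old and 213, 93.2 and 114 CPM in ICM. For all 3 genes old was above young in every library, and the ICM libraries overlapped the young ones. In HLA-E the highest ICM library also lay among the old ones. In old against young the log2 changes were 1.17 ± 0.19 for HLA-B, 1.22 ± 0.20 for HLA-C and 1.06 ± 0.21 for HLA-E (edgeR adjusted p = 1.20e-05, 1.27e-05 and 1.31e-04). HLA-E lost its call without young replicate 3 (log2 change 0.90, edgeR adjusted p = 0.058).

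The HLA sum of footprints was more even than its parts. It stood at 548, 564 and 513 CPM in young, 1299, 1123 and 1104 CPM in old and 561, 452 and 434 CPM in ICM. Old was 2.20-fold above young and ICM was 2.36-fold below old (log2 changes 1.14 ± 0.17 and -1.24 ± 0.20, edgeR adjusted p = 3.32e-06 and 1.31e-05). ICM and young overlapped and differed by -0.10 ± 0.20 (95% interval -0.50 to 0.30, edgeR adjusted p = 0.75). In ICM against old HLA-B and HLA-C were lower by -1.61 ± 0.26 and -1.24 ± 0.26 on the log2 scale (edgeR adjusted p = 1.89e-05 and 8.03e-04). With all libraries thinned to the depth of the shallowest, these changes were -1.08 and -1.15 and no longer called (edgeR adjusted p = 0.071 and 0.082), and HLA-B in old against young was at 0.73 (edgeR adjusted p = 0.21). HLA-E was at -0.73 ± 0.28 in that comparison (edgeR adjusted p = 0.077), and passed without old replicate 2 (-0.87, edgeR adjusted p = 0.042) or ICM replicate 1 (-1.54, edgeR adjusted p = 0.013). The split between HLA-B and HLA-E that ICM showed in mRNA could not be read in footprints. The HLA-E share of the sum was 37.9%, 20.6% and 26.3% in the ICM libraries, and the exact 95% binomial interval of the last ran from 9.15% to 51.2%.

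**Figure D4:**
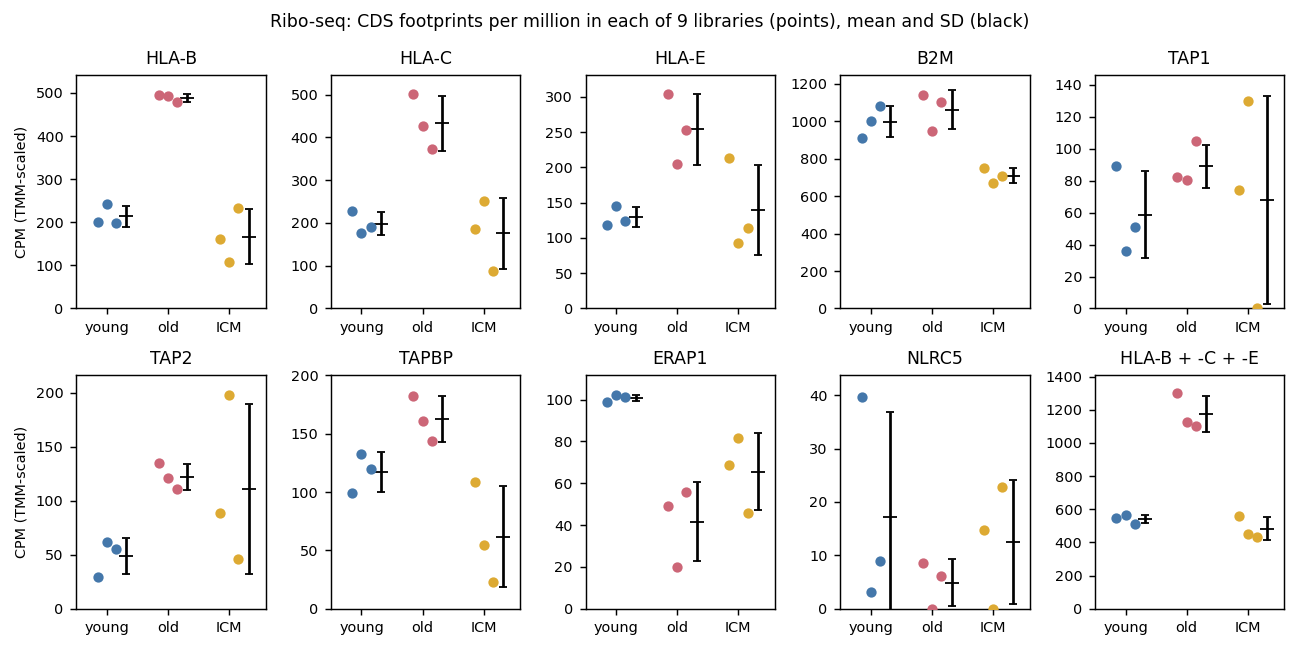
Ribo-seq level of each member and of the HLA sum, in CPM of CDS footprints (vertical axes, from 0), in the 3 young, 3 old and 3 ICM libraries (points), with the mean and SD in black (the SD bar of NLRC5 in young is cut at 0). The old libraries of HLA-B, HLA-C, HLA-E and the HLA sum lie above all young ones, and the ICM libraries spread widely for every member but B2M.

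B2M was the member with the most footprints and the only called change between ICM and young. It was at 911, 1002 and 1079.8 CPM in young, 1139, 946 and 1102 CPM in old and 749, 668 and 708 CPM in ICM. ICM was below both other groups in every library, by log2 changes of -0.51 ± 0.19 from young and -0.60 ± 0.19 from old (edgeR adjusted p = 0.039 and 0.023). The first call was lost without young replicate 2 or 3 or ICM replicate 1 or 2 (edgeR adjusted p = 0.082, 0.14, 0.077 and 0.11), and the second without old replicate 1 or 3 or ICM replicate 2 (0.14, 0.095 and 0.094 in the same test), while the log2 changes stayed between -0.67 and -0.49 and between -0.77 and -0.56. Leaving out both young replicate 1 and old replicate 2 gave -0.67 and -0.80 (edgeR adjusted p = 0.00521 and 7.32e-04). Old and young overlapped, at a difference of 0.10 ± 0.16 on the log2 scale (edgeR adjusted p = 0.67).

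Of the transporter subunits, TAP2 was at 29.7, 61.5 and 55.0 CPM in young, 134.8, 120.7 and 110.8 CPM in old and 88.7, 197.8 and 45.7 CPM in ICM. It rose in old by a log2 change of 1.15 ± 0.26 (edgeR adjusted p = 6.35e-04), a call lost without young replicate 3 or old replicate 1 (edgeR adjusted p = 0.090 and 0.096). TAP1 was at 89.1, 36.0 and 51.2 CPM in young and 82.1, 80.5 and 104.7 CPM in old, so the groups overlapped, and at 73.9, 129.6 and 0 CPM in ICM, where the zero allows up to 68.5 CPM. Its log2 change in old was 0.95 ± 0.30 (edgeR adjusted p = 0.014), and the call was lost without young replicate 2 or 3 or old replicate 1 or 3 (edgeR adjusted p = 0.32, 0.16, 0.12 and 0.22). In ICM against young TAP2 was at 0.93 ± 0.38 and TAP1 at 0.75 ± 0.46, neither past the threshold (edgeR adjusted p = 0.067 and 0.25). TAP2 was past it without ICM replicate 3 (0.99, edgeR adjusted p = 0.046).

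TAPBP was at 99.0, 133 and 119.6 CPM in young, 183, 161 and 144 CPM in old and 108, 54.6 and 22.8 CPM in ICM. It was lower in ICM than in old by a log2 change of -1.01 ± 0.35 (edgeR adjusted p = 0.047), a call that 6 of the 9 lysates each decided, since it was lost without young replicate 2 or 3, old replicate 1 or 3 or ICM replicate 2 or 3 (edgeR adjusted p from 0.058 to 0.27). Without ICM replicate 1 the log2 change was -2.09 (edgeR adjusted p = 0.014). ERAP1 was at 99.0, 102.3 and 101.1 CPM in young, 49.1, 20.1 and 55.8 CPM in old and 69.0, 81.8 and 45.7 CPM in ICM. Young was above every other library. Footprints of ERAP1 were lower in old by a log2 change of -1.02 ± 0.26 (edgeR adjusted p = 0.0027), which was lost without young replicate 2 or 3 or old replicate 1 (edgeR adjusted p = 0.073, 0.095 and 0.071), and in ICM the change of -0.56 ± 0.38 did not pass (edgeR adjusted p = 0.29).

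By count, 5 of the 8 tested members were higher and 1 lower in old than in young footprints, beside 19.3% and 17.0% of the 4643 genes tested. In ICM against young 0 were higher and B2M alone was lower, beside 13.7% and 12.9% of all genes, with 2 members at an unadjusted p under 0.05. In ICM against old 0 were higher and 4 lower, beside 5.79% and 7.62%, with 5 members at an unadjusted p under 0.05. DESeq2 gave 0 members in ICM against young and 3 in old against young. Without young replicate 1 and old replicate 2, the libraries that stood apart, the counts were 1, 6 and 5 in the same order of ICM against young, old against young and ICM against old.

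Footprints per mRNA, or translational efficiency, were tested by an assay-by-condition term in a fit that kept the lysate as a block. None of the 8 members was called by edgeR or by DESeq2 in any of the 3 comparisons, where edgeR called 2.45%, 1.45% and 0.26% of all genes in ICM against young, old against young and ICM against old. At an unadjusted p under 0.05 there were 0, 1 and 0 members. SEs ran from 0.18 to 0.46 on the log2 scale, so changes within these errors, and also larger ones, could be missed at this depth. The HLA sum changed by -0.11 ± 0.21, 0.24 ± 0.17 and -0.35 ± 0.20 in the same order. ERAP1 was the member at an unadjusted p under 0.05, with -0.61 ± 0.29 in old against young (edgeR adjusted p = 0.35), and without the lysate block its edgeR adjusted p was 0.038. As a ratio of length-scaled CDS footprints to CDS mRNA reads, ERAP1 went from 2.84 ± 0.0846 (SD, n = 3) in young to 1.61 ± 0.689 in old and 3.60 ± 0.919 in ICM. The young and old libraries did not overlap in this ratio, with 2.75 to 2.92 in young and 0.822 to 2.12 in old, and the lowest old value rests on 1 footprint.

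The share of mRNA-seq reads in the 3′ UTR shows whether a member's reads were spread alike in the groups. For ERAP1 it was 30.4%, 31.6% and 36.1% in young, 35.7%, 40.2% and 40.6% in old and 43.4%, 43.0% and 43.2% in ICM. ICM was above every young library by a mean of 10.5 percentage points (exact two-sided permutation p = 0.10, the smallest possible), and the exact 95% binomial intervals, 38.0% to 48.2% over the ICM libraries and 26.2% to 40.0% over the young ones, overlapped slightly. ERAP1 was further below young on CDS reads alone, at log2 changes of -0.94 in ICM and -0.45 in old. HLA-E had 40.2% ± 1.94 (SD, n = 3) of its reads in the 3′ UTR in young, 46.3% ± 1.79 in old and 43.7% ± 0.655 in ICM, with no overlap between groups (exact two-sided permutation p = 0.10, the smallest possible), and on CDS reads alone its log2 change from young was 0.72 in ICM and 1.03 in old. For HLA-B, HLA-C, TAP1, TAPBP and NLRC5 the groups overlapped in all 3 comparisons, and for B2M and TAP2 ICM was below old without overlap (means of 29.2% against 32.4% for B2M and of 31.7% against 36.98% for TAP2). The members differed in how much of the transcript lay in the 3′ UTR column, from means of 6.41% for TAP1 in ICM to 46.3% for HLA-E in old.

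**Figure D5:**
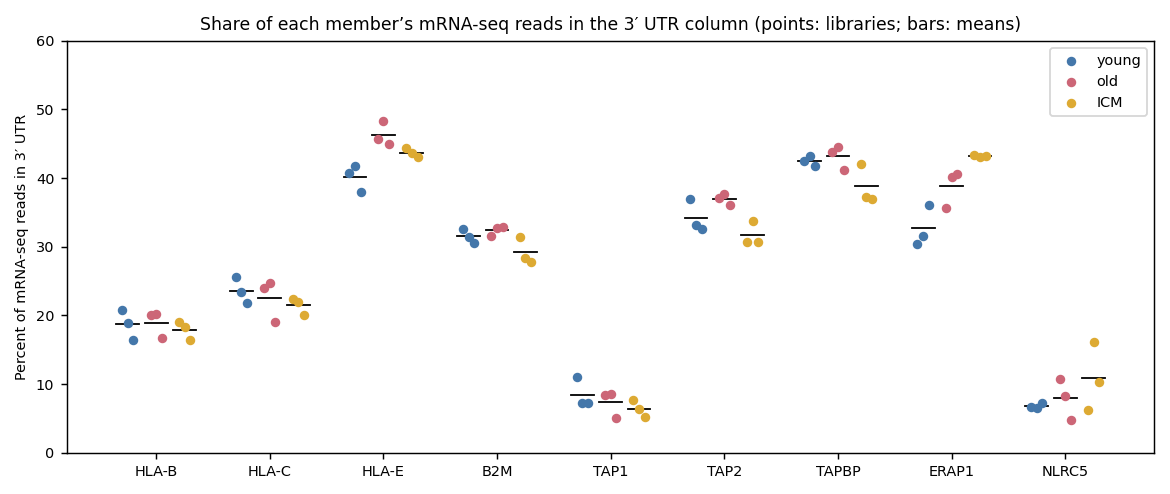
Percent of each member's mRNA-seq reads in the 3′ UTR column (vertical axis) in each young, old and ICM library (points), with bars at the group means. ERAP1 rises from a mean of 32.7% in young to 43.2% in ICM, HLA-E from 40.2% in young to 46.3% in old, and the HLA-B means stay between 17.9% and 18.9%.

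Footprints of most members lay on the CDS, with some exceptions. HLA-E had footprints in its 3′ UTR in all groups, for example 53 of 482 in old replicate 1 and 18 of 213 in young replicate 3. TAPBP had footprints in its 5′ UTR in young, 23 of 211 in replicate 3 and 6 of 90 in replicate 2, against 8 of 270 in old replicate 1 and 0 of 72 in old replicate 3. ERAP1 had a mean of 70.1% ± 18.8 (SD, n = 3) of its footprints on CDS in old, where old replicate 2 held few, against 87.9% ± 14.5 in young. TAP1 had none outside its CDS in any library, and HLA-B had means of 95.05% in young, 99.4% in old and 100% in ICM on CDS.

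Around the members, 36 of 38 further genes of the pathway could be tested in mRNA-seq, and 12 were higher and 15 lower in ICM than in young, 13 higher and 8 lower in old than in young, and 8 higher and 14 lower in ICM than in old. Among all genes 34.9% were higher and 36.1% lower in ICM against young, 32.4% and 33.7% in old against young and 30.7% and 32.6% in ICM against old. Their median log2 changes were -0.09, 0.05 and -0.01, beside the members' -0.20, 0.74 and -0.39. Among the other class I and class I-like genes 4 of 7 were higher in old and none lower, and in ICM 3 were higher and 3 lower. MICA, a stress-induced ligand of the activating receptor NKG2D, was 1.36 ± 0.07 higher in ICM and 1.45 ± 0.07 higher in old on the log2 scale, from a mean of 37.7 CPM in young to 96.5 and 102.4 CPM. MR1, which presents vitamin B metabolites, was 1.32 ± 0.11 higher in ICM and 0.37 ± 0.12 higher in old. In footprints 20 of the 38 genes could be tested, and against young 3 were higher and 1 lower in ICM and 3 were higher and none lower in old. Among all genes tested in footprints 13.7% were higher and 12.9% lower in ICM, and 19.3% and 17.0% in old. The counts of higher genes are thus near or below these shares. MICA was among the higher genes in both comparisons, at 1.38 ± 0.34 in ICM and 1.23 ± 0.25 in old. The others were picked out after their values were seen. MICB, a relative of MICA with the same receptor, was at 2.06 ± 0.39 in ICM and 1.27 ± 0.30 in old, STAT2 at 1.06 ± 0.31 in ICM, IRF1 at 1.17 ± 0.31 in old, and the constitutive proteasome subunit PSMB7 at -0.79 ± 0.26 in ICM.

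For the immunoproteasome, the peptide-cutting proteasome that interferon induces, 5 subunit and activator genes were tested in mRNA-seq. Against young 3 were lower and none higher in old, and 3 were lower and 1 higher in ICM, beside 33.7% and 36.1% of all genes lower. Against old 3 were higher and none lower in ICM, beside 30.7% and 32.6% of all genes. PSMB9, a catalytic subunit whose gene neighbours TAP1, had log2 changes of -1.47 ± 0.14 in old and -0.80 ± 0.13 in ICM, from a mean of 16.5 CPM in young to 5.88 and 9.33 CPM. Of the 6 folding and loading genes 2 were higher and 3 lower in ICM, and 3 were higher and none lower in old. Of 3 constitutive proteasome counterparts 1 was higher and 1 lower in ICM, and 1 was higher in old. Among all genes 34.9% were higher and 36.1% lower in ICM than in young, and 32.4% and 33.7% in old.

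Of 15 regulators 5 were higher and 5 lower in ICM, and 5 higher and 5 lower in old, which is near the share of all genes in each direction. EZH2, the methyltransferase of Polycomb repression, had log2 changes of -3.29 ± 0.13 in ICM and -1.79 ± 0.11 in old, from a mean of 25.1 CPM in young to 2.56 and 7.34 CPM. RFXAP, a subunit of the RFX complex that binds the X box of class I and class II promoters, had log2 changes of -1.22 ± 0.29 in old and -0.81 ± 0.26 in ICM, at means of 3.51, 1.42 and 1.93 CPM in young, old and ICM.

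Some genes outside the pathway followed the members closely in level over the 9 mRNA-seq libraries. By Pearson r of log2(CPM + 1) among 10801 genes, the closest to the HLA sum were ARHGEF28, PIGS, DAP, TGOLN2 and PDLIM1 (r from 0.996 to 0.997), the closest to TAP1 were RRAS, SHC1, GABBR2, DDA1 and REEP2 (0.988 to 0.994), and the closest to B2M were ARPC3, AP3M2, DCTN2, PIGU and PDIA6 (0.975 to 0.988). The 9 points fall into 3 conditions and share library and scaling, so these values describe the order of the condition means and carry no p. DAP, for example, was at means of 496, 1135 and 492 CPM in young, old and ICM, beside 718, 1376 and 713 CPM for the HLA sum.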

How the data were processed

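Ribo-seq and mRNA-seq were measured in IMR90 lysates of 3 groups with 3 replicates each, 18 libraries in all, grouped by sample title. Per the study's methods, lysates were made with cycloheximide, part of each went to poly(A) RNA-seq, and the replicates were independent cultures. As deposited, the tables hold the authors' estimated counts, a row for each gene symbol and a column each for 5′ UTR, CDS, 3′ UTR and other classes, not scaled to depth. Some are fractions of a read, and how reads with several matches were divided is not given in the sources used here. The submitters' processing notes name GRCh37, STAR 2.6.0c, featureCounts, DESeq2 and deepTools with no roles.

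As in the methods, Ribo-seq was taken from CDS reads and mRNA-seq from the sum of 5′ UTR, CDS and 3′ UTR reads, rounded to whole numbers. Each assay was fitted with edgeR 4.0.16 in R 4.3.3 (limma 3.58.1), by quasi-likelihood with TMM scaling and filterByExpr, over its 9 libraries. Two-sided p-values were adjusted over all genes tested by the Benjamini-Hochberg method, and genes under 0.05 were called. For the HLA sum, the rows of HLA-B, HLA-C and HLA-E were replaced by their sum and the fit repeated. Translational efficiency was fitted over the 18 libraries together, blocked by lysate because the methods state that lysates were shared. Libraries of a lysate deviated from their groups with an r over genes of -0.08 to 0.14. Standard errors were taken from the log2 change and the F statistic, and 95% intervals are normal. Exact binomial intervals and the 3 counts that a 0 allows cover counting error only. Shares and ratios were compared by exact two-sided permutation over libraries.

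Coding lengths and gene positions are of GENCODE v44 lifted to GRCh37 (MANE Select coding sequence), since no RefSeq proteins were used here. Promoter windows and their starts are of RefSeq. The alternatives were DESeq2 1.42.0, other scaling, no filter, libraries left out, thinned reads, CDS reads alone, a replicate block, the compared groups alone and other sums of HLA genes. The members, the 38 further pathway genes and the marker lists were chosen with earlier results of these data known. Every member is named, further pathway genes where they were called in mRNA-seq with an absolute log2 change over 1 in ICM or old against young (those named for footprints alone were picked after their values were seen), and genes alike in level by the 5 highest r among genes whose mean reached 5 CPM.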

Additional observations from a re-analysis of the deposited data

How the results depend on the processing

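In mRNA-seq, the 9 members' changes kept their direction and their side of the threshold in 450 of 459 repeats over all alternatives, with 8 calls lost, 1 gained and none reversed. Leaving out 1 lysate at a time gave 7 to 9 members called in ICM against young, 9 in old against young and 8 in ICM against old. In Ribo-seq 338 of 391 repeats kept both, 42 calls were lost, 5 were gained and 6 directions turned.

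The HLA sum of mRNA in ICM against young, which lay near 0, turned in sign with RLE scaling (0.00072), with DESeq2 (0.00079), without young replicate 1 and old replicate 2 (0.024) and without these and ICM replicate 3 (0.053), and leaving out 1 lysate gave -0.050 to 0.024. With all class I HLA symbols summed it was -0.20 and called. Its footprint calls in old against young and ICM against old were kept under all alternatives.

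The number of members called in footprints of ICM against young went from 1 to 0 with DESeq2, with no filter, with the replicate block, with the compared groups alone and after thinning, and to 2 at an adjusted p under 0.15 or over the range of left-out lysates, 0 to 2. In old against young it went from 6 to 3 with DESeq2, to 1 after thinning and to 2 to 6 with 1 lysate left out. In ICM against old it went from 4 to 2 with the replicate block, to 0 after thinning and to 2 to 5 with 1 lysate left out. Thinning left 3 members past the filter. The deviations of same-numbered libraries correlated with r between -0.06 and 0.10. Libraries of a shared lysate gave only -0.08 to 0.14 by the same measure. It therefore cannot tell whether lysates with the same replicate number had anything in common.

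Footprint changes that were not called turned in sign for HLA-C in ICM against young without ICM replicate 3 (0.045, in a range of -0.23 to 0.045), without the 3 lysates (0.053) and after thinning (0.24), for HLA-E in ICM against young without ICM replicate 1 (-0.46, in a range of -0.46 to 0.48), and for B2M in old against young without old replicate 1 (-0.00045, in a range of -0.00045 to 0.21) and after thinning (-0.021). Footprints per mRNA in ICM against young turned for the HLA sum with all class I symbols (0.022) and with mRNA-seq thinned (0.056), and for ERAP1 with no filter (-0.11) and without young replicate 1 (-0.0084, in a range of -0.0084 to 0.14). With no replicate block, 1 member, ERAP1, was called in old against young. The cause of these shifts was not tested. Depth limits the footprints of ICM most, where 166 reads of the HLA sum and 22 of ERAP1 stand behind the group.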
